A study of Mus musculus with 8 samples.

Results

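The 9 genes of mural cells, the cells that wrap brain capillaries and arterioles, were followed through RNA-seq of the corpus callosum. They were the rows with the symbols *Pdgfrb*, *Rgs5*, *Kcnj8*, *Abcc9*, and *Vtn* (capillary mural cells, or pericytes), *Acta2*, *Myh11*, and *Tagln* (arteriole smooth muscle), and *Anpep*. All 9 were found among the 25239 gene symbols of the deposited table, and all 9 were among the 18123 genes that were tested, those whose mean over the 8 libraries reached 0.1 CPM. CPM are reads of a gene scaled to a common effective library size. The tissue came from male C57BL/6 mice subjected to bilateral common carotid artery stenosis (BCAS), in which microcoils around both common carotid arteries lower cerebral blood flow, or to a sham operation without coils. Mice were labelled wild type (WT) or Trpa1 -/- (TRPA1-KO, a deletion in all cells of the ion channel gene *Trpa1*). For each label there was 1 sham library, of day 14 after operation, and 1 BCAS library each of days 7, 10, and 14. No day had a replicate, so the 3 BCAS days served as replicates of a label, and their spread holds days as well as animals. Both sham libraries formed 1 group, which mixes the labels and covers day 14 only.

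Pericytes share the basement membrane of capillary endothelial cells, which recruit and keep them through platelet-derived growth factor B acting on the receptor encoded by *Pdgfrb*. Smooth muscle cells ring arterioles, hold the contractile proteins encoded by *Acta2*, *Myh11*, and *Tagln*, and set vessel tone. Pericytes also help to keep the blood-brain barrier closed, and white matter, with its sparse blood supply, depends on both cell types when perfusion is low.

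The libraries held 7896071 to 12952093 reads on genes. *Trpa1* went against the genotype labels, with 0 to 1 reads in the 4 libraries labelled WT and 3 to 11 in the 4 labelled TRPA1-KO, so every direction below is between labels. Counts per gene do not show whether these reads lie in the deleted part of the gene. Oligodendrocyte genes, which mark white matter, were high (8 genes summed to 12930 to 17360 CPM), and neuron genes of cortex and striatum were present too. The day 7 library labelled WT stood apart: it was the highest of the 8 for 21.9% of all tested genes and the lowest for 19.0%, and its 6 microglia genes summed to 745 CPM against 278 to 476 CPM elsewhere. A bulk library cannot tell fewer cells of a type from less RNA per cell.

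*Kcnj8* and *Abcc9* encode the pore and the sulphonylurea receptor of the vascular ATP-sensitive potassium (KATP) channel and are neighbours on chromosome 6, on the minus strand and 16247 bases apart. Together with *Vtn*, which encodes the matrix glycoprotein vitronectin, they were the capillary genes highest in the same library, as described below. The sequence just upstream of each of the 3 genes is shown for that reason. The set of RefSeq (GRCm38.p6) start-site windows used here covered 6 of the 9 genes, and *Pdgfrb*, *Myh11*, and *Tagln* were not among them. Capitals mark matches to an E-box (CANNTG), a GC box (GGGCGG), or a TATA element (TATAAA), each searched on both strands. The windows are chr6:142571615-142571864 (minus strand), chr6:142702316-142702524 (minus strand), and chr11:78498870-78499090 (plus strand), outside annotated exons of their genes.
Kcnj8: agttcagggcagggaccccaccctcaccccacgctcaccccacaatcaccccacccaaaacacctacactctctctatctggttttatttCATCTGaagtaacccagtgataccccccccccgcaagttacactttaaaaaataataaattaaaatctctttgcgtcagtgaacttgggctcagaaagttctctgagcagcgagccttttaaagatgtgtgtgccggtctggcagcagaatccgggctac
Abcc9: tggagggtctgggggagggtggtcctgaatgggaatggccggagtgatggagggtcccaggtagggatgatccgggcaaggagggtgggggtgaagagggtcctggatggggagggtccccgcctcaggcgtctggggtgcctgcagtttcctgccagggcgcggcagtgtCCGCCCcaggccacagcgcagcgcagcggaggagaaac
Vtn: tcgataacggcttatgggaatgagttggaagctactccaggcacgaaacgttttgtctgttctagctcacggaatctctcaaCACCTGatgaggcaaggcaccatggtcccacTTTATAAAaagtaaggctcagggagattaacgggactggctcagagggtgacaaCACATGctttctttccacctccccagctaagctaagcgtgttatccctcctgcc
The *Kcnj8* window of 250 bases held 1 E-box, which 66.2% of all windows of that length held. The *Abcc9* window of 209 bases held 1 GC box (26.5% of windows) on the opposite strand, and 68.4% of its bases were G or C against 49.2% for *Kcnj8*. The *Vtn* window of 221 bases held 2 E-boxes (62.2% of windows) and a TATA element on each strand, the 2 matches overlapping (9.99% of windows held one on either strand). No motif was in all 3 windows. A CArG box, the motif of serum response factor, matched none of the 3 windows (1.22% to 1.47% of windows of these lengths held one).

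Per kilobase of exon (GENCODE M21), the 9 genes spanned a wide range of levels. *Rgs5*, which encodes a regulator of G protein signalling typical of brain pericytes, lay at chr1:169655501-169695813 and had 23.8 ± 1.75 CPM per kb (SD, n = 8 libraries). *Vtn* (chr11:78499091-78502324) had 23.5 ± 3.29 CPM per kb, and these 2 genes overlapped in range. *Pdgfrb* (chr18:61045150-61085061) followed with 5.55 ± 0.766 CPM per kb. Its lowest library (4.53 CPM per kb) lay below the highest library of *Tagln* (5.01 CPM per kb).

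The other 6 genes were lower and each overlapped its neighbours in this order. *Tagln*, which encodes the actin-binding protein transgelin (chr9:45929619-45936058), had 3.30 ± 0.912 CPM per kb. *Acta2*, which encodes smooth muscle alpha-actin (chr19:34241090-34255590), had 2.62 ± 0.920 CPM per kb. The channel subunits stood at almost the same level per kilobase, *Abcc9* (chr6:142587862-142702315) at 2.02 ± 0.420 and *Kcnj8* (chr6:142564837-142571614) at 1.99 ± 0.539 CPM per kb. *Anpep*, which encodes aminopeptidase N (chr7:79821803-79861059), and *Myh11*, which encodes the smooth muscle myosin heavy chain (chr16:14194535-14291372), were lowest, with 0.828 ± 0.340 and 0.825 ± 0.358 CPM per kb. In the annotation, *Abcc9* overlapped the antisense gene *5330439B14Rik*, *Tagln* overlapped *Pcsk7* and *Gm48529* on the opposite strand, and *Anpep* overlapped *Gm44974* on its own strand, so reads there are uncertain.

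**Figure D1:**
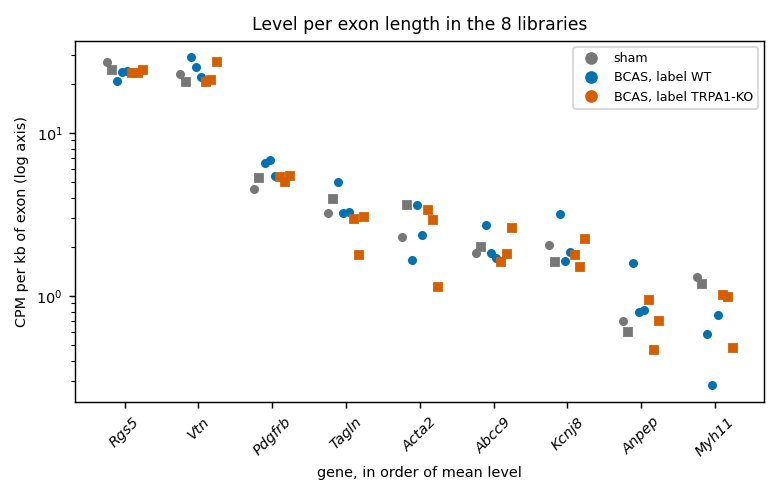
Level of the 9 mural genes per kilobase of exon (log axis) in the 8 libraries, in order of the mean over libraries. Each point is 1 library, circles labelled WT and squares labelled TRPA1-KO. *Rgs5* and *Vtn*, at 23.8 and 23.5 CPM per kb on average, lie above all others, and *Anpep* and *Myh11* are lowest.

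Across the operation, the mural genes were mostly level, and *Myh11* was the exception in size. *Myh11* lay lower in every BCAS library than in either sham library, about 0.55 of the sham mean. The pericyte gene *Rgs5* did so too, at about 0.90 of the sham mean. *Pdgfrb* was above both sham libraries in all BCAS libraries labelled WT and overlapped sham with the other label. The pericyte genes *Kcnj8*, *Abcc9*, and *Vtn* overlapped sham in both labels. No member passed limma's adjusted threshold of 0.05 in any of the 5 comparisons, and neither did any with edgeR's quasi-likelihood test or DESeq2. Before adjustment, the label WT against sham gave 2 members with a p under 0.05 by each of the 3 tools (edgeR 6.78% and DESeq2 4.54% of all genes, the limma shares following below) and all BCAS against sham gave 1 by each (edgeR 3.78%, DESeq2 2.91%). The label TRPA1-KO against sham (edgeR 2.85%, DESeq2 1.40%) and all libraries of the labels (edgeR 4.62%, DESeq2 2.99%) gave 0. Between the BCAS labels, limma and DESeq2 gave 0 and edgeR gave 1 (edgeR 5.23%, DESeq2 3.29%).

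*Myh11* had 9.94 CPM (127 reads) in the sham library labelled WT and 9.01 CPM (94 reads) in the sham library labelled TRPA1-KO. With the label WT, BCAS gave 4.45, 2.14, and 5.82 CPM on days 7, 10, and 14, the day 10 value resting on 17 reads. With the label TRPA1-KO it gave 7.68, 7.47, and 3.64 CPM on the same days. All 6 BCAS libraries thus lay below both sham libraries, with the day 7 and day 10 libraries labelled TRPA1-KO closest to them. The 95% Clopper-Pearson interval (counting error only) of the lower sham library, 7.28 to 11.0 CPM, reached into the intervals of 3 BCAS libraries, which ended at 9.72, 9.44, and 7.61 CPM, and stayed above those of the other 3.

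For *Myh11*, the mean was 5.20 ± 2.19 CPM over BCAS (SD, n = 6) and 9.48 ± 0.652 CPM over sham (SD, n = 2). The log2 fold change of log2(CPM + 1) was -0.84 ± 0.33 (SE), with a limma p under 0.05 before adjustment and a limma adjusted p of 1.0 after it. The exact permutation p was 0.107, where 6 against 2 libraries can reach 0.036. With the label WT alone against sham the log2 fold change was -1.10 ± 0.34 (limma p under 0.05, adjusted p = 0.843), and with the label TRPA1-KO alone it was -0.58 ± 0.34 (limma adjusted p = 1.0). Both comparisons used the same sham libraries. The difference between the labels within BCAS, -0.52 ± 0.33, did not pass (limma adjusted p = 0.983). The unadjusted call over all BCAS libraries was lost without either sham library, with log2 fold changes of -0.78 and -0.90, and that with the label WT alone was lost without the sham library labelled WT, at -1.04.

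Genes of other cell types also differed between the libraries. The 3 libraries with the least *Myh11* (day 10 and day 7 labelled WT, day 14 labelled TRPA1-KO) were those with the most *Gfap*, an astrocyte gene, with 1060, 1415, and 427 CPM against 157 to 234 CPM in the rest. Other astrocyte genes were uneven in these 3 libraries. *Slc1a2* had 2968, 2675, and 3512 CPM (2675 to 3045 CPM in the rest), and *Aldh1l1* had 83.3, 94.5, and 52.6 CPM (51.2 to 61.5 CPM in the rest). Striatal neuron genes (9 genes) summed to 868 to 1536 CPM over BCAS and 1694 to 2285 CPM in sham. Oligodendrocyte genes (8 genes) summed to 12930 to 14620 CPM over BCAS and 15830 and 17360 CPM in sham. Blood genes (5 genes) summed to 1.11 to 132 CPM over BCAS and 63.2 to 202 CPM in sham. The blood ranges overlapped through the day 10 library labelled WT (132 CPM) and the day 14 library labelled TRPA1-KO (80.0 CPM). The endothelial sum overlapped between BCAS (917 to 1074 CPM) and sham (905 and 995 CPM). The part of these cell types in the *Myh11* values was not tested.

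**Figure D2:**
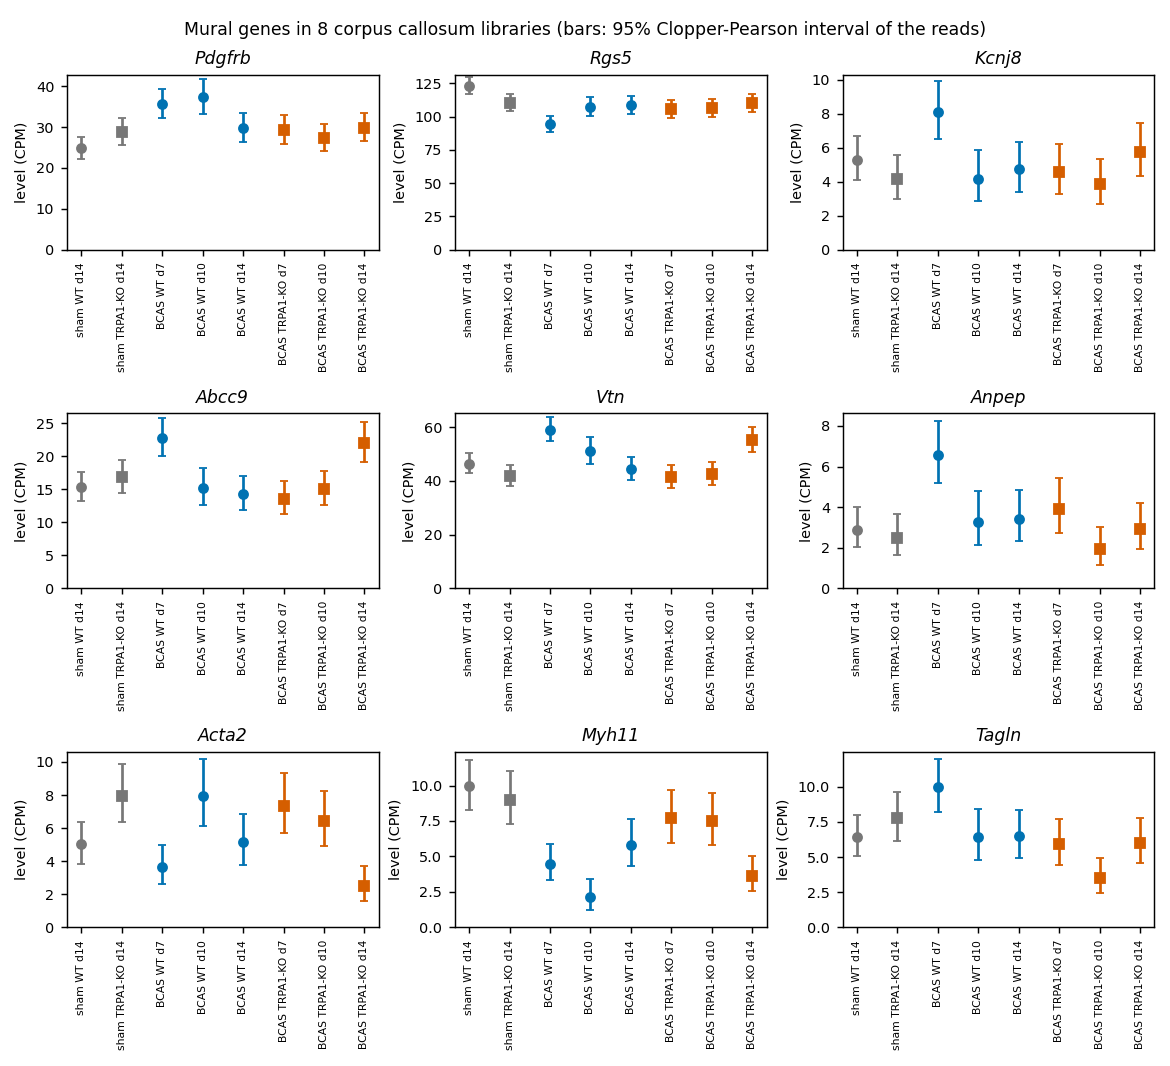
Level in CPM of each mural gene in each of the 8 libraries, with 95% Clopper-Pearson intervals of the reads (counting error only). Gray is sham, blue BCAS labelled WT, and orange BCAS labelled TRPA1-KO, each axis starting at 0. *Myh11* is below both sham libraries in all 6 BCAS libraries, and *Kcnj8*, *Abcc9*, *Vtn*, *Anpep*, and *Tagln* are highest in the day 7 library labelled WT.

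*Acta2* and *Tagln*, the other 2 arteriole genes, each overlapped sham over all BCAS libraries, unlike *Myh11*. *Acta2* had 5.01 and 7.96 CPM in the sham libraries labelled WT and TRPA1-KO. In BCAS it had 3.65, 7.94, and 5.16 CPM on days 7, 10, and 14 with the label WT, against 7.35, 6.41, and 2.50 CPM with the other label. The BCAS libraries lay on both sides of the lower sham library and none exceeded the higher one. Its log2 fold change over all BCAS libraries was -0.25 ± 0.33 (limma adjusted p = 1.0). The lowest *Acta2* value, in the day 14 library labelled TRPA1-KO, rested on 24 reads. In that library and the day 7 library labelled WT, *Acta2* ranked 8 and 7 of 8 from the highest, and *Myh11* ranked 7 and 6. In the day 10 library labelled WT, *Acta2* ranked 2 and *Myh11* ranked 8.

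*Tagln* had 6.42 and 7.77 CPM in the sham libraries labelled WT and TRPA1-KO. It had 9.96, 6.43, and 6.47 CPM on days 7, 10, and 14 of BCAS with the label WT and 5.90, 3.52, and 6.03 CPM with the label TRPA1-KO. Every BCAS library labelled WT was above every one labelled TRPA1-KO, and each labelled TRPA1-KO was also below both sham libraries. The log2 fold change between the BCAS labels was 0.49 ± 0.24 (limma adjusted p = 0.983), and the exact permutation p was 0.10, the smallest that 3 against 3 allows. Against sham it was -0.42 ± 0.25 with the label TRPA1-KO (limma adjusted p = 1.0) and 0.07 ± 0.25 with the label WT (limma adjusted p = 0.995). Without the day 7 library labelled WT the difference between the labels was 0.30, and without the day 10 library labelled TRPA1-KO it was 0.28.

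Summed over the 3 arteriole genes, sham had 21.4 and 24.7 CPM and the BCAS libraries 12.2 to 20.9 CPM, so the ranges did not overlap. The gap was narrow, between 20.9 CPM (day 7 BCAS, label TRPA1-KO) and 21.4 CPM (sham, label WT). No counting interval was computed for the sum. Per CPM of the 18 endothelial genes, that sum was 0.0215 and 0.0274 in sham and 0.0127 to 0.0228 in BCAS. These ranges overlapped through the day 7 library labelled TRPA1-KO. Of the 3 genes, only *Myh11* lay below both sham libraries in every BCAS library, while *Acta2* and *Tagln* each overlapped sham.

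Among the capillary genes, *Pdgfrb* and *Rgs5* differed from sham in opposite directions, both by small amounts. *Pdgfrb* had 24.8 and 28.9 CPM in sham. It had 35.8, 37.4, and 29.7 CPM on days 7, 10, and 14 of BCAS with the label WT, all above both sham libraries. With the label TRPA1-KO it had 29.3, 27.3, and 29.9 CPM, which overlapped sham. Against sham, the label WT had a log2 fold change of 0.34 ± 0.12 (limma p under 0.05, adjusted p = 0.885), and the label TRPA1-KO had 0.10 ± 0.12 (limma adjusted p = 1.0).

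For *Pdgfrb*, the difference between the BCAS labels was 0.24 ± 0.11 on the log2 scale (limma adjusted p = 0.983), and the ranges overlapped through day 14. The call against sham was lost without the sham library labelled WT, at 0.23, and without the day 10 library labelled WT, at 0.28. On day 14 alone, the time of the sham libraries, the label WT was 0.15 above sham. The 2 highest *Pdgfrb* libraries, days 7 and 10 labelled WT, were also the 2 with the most *Gfap* (1415 and 1060 CPM). They had the most microglial RNA too (745 and 476 CPM summed). Other astrocyte genes were uneven there. *Slc1a2* had 2675 and 2968 CPM (sham 3045 and 2770 CPM), and *Aldh1l1* had 94.5 and 83.3 CPM (sham 51.2 and 61.5 CPM). The part of astrocytes and microglia was not tested.

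*Rgs5*, the most deeply read of the 9 genes, varied least among them, with 8642 reads in all and a coefficient of variation of 7.32%. It had 123 and 111 CPM in sham. It had 94.4, 108, and 109 CPM on days 7, 10, and 14 of BCAS with the label WT and 106, 106, and 110.1 CPM with the label TRPA1-KO. All 6 BCAS libraries were below both sham libraries, but 5 of the 6 lay inside the 95% interval of the lower sham library (104 to 117 CPM, counting error only). The interval of the day 7 library labelled WT (88.8 to 100.3 CPM) was the 1 that stayed clear of it. The interval of the higher sham library (117.4 to 129.7 CPM) lay above those of all 6 BCAS libraries, which ended at 116.9 CPM or lower. The log2 fold change was -0.15 ± 0.07 (limma adjusted p = 1.0), and the exact permutation p was 0.0714. Without the sham library labelled WT it was -0.07, and without the one labelled TRPA1-KO it was -0.23 and had a limma p under 0.05.

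*Kcnj8*, *Abcc9*, and *Vtn* overlapped sham in both labels. *Kcnj8* had 5.24 and 4.12 CPM in sham. It had 8.09, 4.16, and 4.72 CPM on days 7, 10, and 14 with the label WT and 4.56, 3.84, and 5.72 CPM with the label TRPA1-KO. *Abcc9* had 15.3 and 16.8 CPM in sham, then 22.8, 15.2, and 14.3 CPM with the label WT and 13.6, 15.1, and 22.0 CPM with the label TRPA1-KO. For both channel genes the day 7 library labelled WT was highest and the day 14 library labelled TRPA1-KO was second.

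*Vtn* had 46.5 and 41.8 CPM in sham, then 59.1, 51.2, and 44.4 CPM with the label WT and 41.4, 42.6, and 55.2 CPM with the label TRPA1-KO on days 7, 10, and 14. The same 2 libraries were again the highest. The log2 fold changes of *Kcnj8*, *Abcc9*, and *Vtn* over all BCAS libraries were 0.10 ± 0.23, 0.06 ± 0.19, and 0.14 ± 0.13 (limma adjusted p = 1.0 for each).

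*Anpep* was the most uneven of the 9 genes after *Myh11*, with a coefficient of variation of 41.1% against 43.4%. It had 2.89 and 2.49 CPM in sham, 6.58, 3.28, and 3.40 CPM on days 7, 10, and 14 of BCAS with the label WT, while with the label TRPA1-KO it had 3.90, 1.92, and 2.91 CPM. The libraries labelled WT were all above sham, and those labelled TRPA1-KO overlapped it. The log2 fold change against sham was 0.50 ± 0.30 with the label WT (limma adjusted p = 0.915) and 0.05 ± 0.30 with the label TRPA1-KO (limma adjusted p = 1.0). Without the day 7 library the first value was 0.23.

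**Figure D3:**
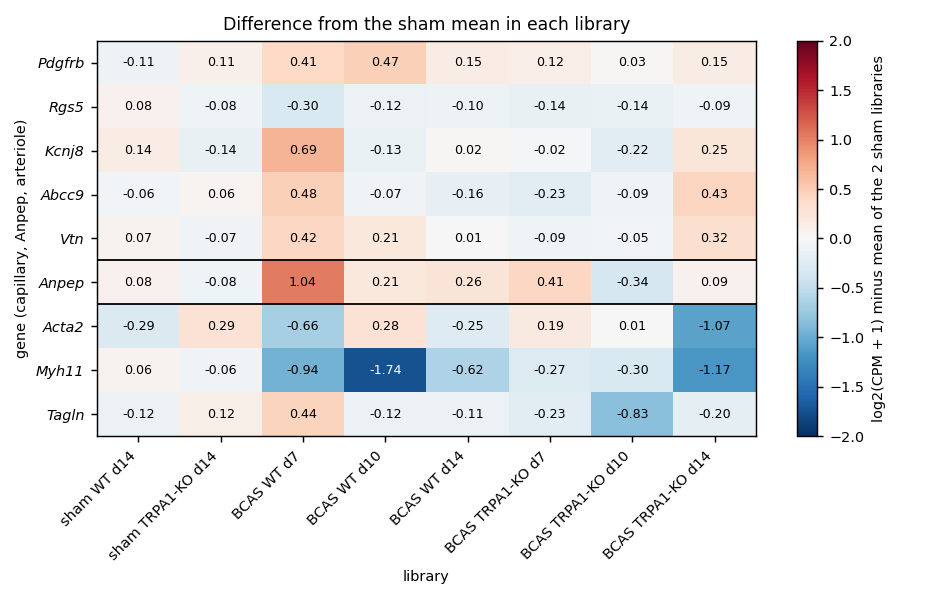
Difference of each gene (rows, capillary genes on top, arteriole genes at the bottom) in each library (columns) from the mean of the 2 sham libraries, on the log2(CPM + 1) scale. Red is above and blue below the sham mean. *Myh11* is blue in all 6 BCAS libraries, down to -1.74 on day 10 with the label WT, and the day 7 column of that label is red for *Pdgfrb*, *Kcnj8*, *Abcc9*, *Vtn*, *Anpep*, and *Tagln*.

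The counts of members were read against all 18123 tested genes. Over all BCAS libraries against sham, 1 of the 9 members (*Myh11*) had a limma p under 0.05, as did 3.53% of all genes, and 2 (*Rgs5* and *Myh11*, both lower) did not overlap between the groups, as was so for 6.19% of all genes. The median log2 fold change of the members was 0.06, and that of all genes was -0.0013. With the label WT against sham, 2 members (*Pdgfrb* and *Myh11*) had a p under 0.05 (5.45% of all genes), and 4 did not overlap (19.9% of all genes), *Pdgfrb* and *Anpep* higher and *Rgs5* and *Myh11* lower. With the label TRPA1-KO against sham, 0 members had a limma p under 0.05 (2.74% of all genes), and 3 did not overlap (18.6%), *Rgs5*, *Myh11*, and *Tagln*, all lower. The median member differed from sham by 0.08 with the label WT and by 0.00085 with the label TRPA1-KO.

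Between the BCAS labels, 0 members had a limma p under 0.05 (4.20% of all genes), and 1 (*Tagln*) did not overlap (9.21%). The 9 log2 fold changes ran from -0.52 for *Myh11* to 0.49 for *Tagln*, with 7 above 0 and a median of 0.15. When the sham libraries were added, 4 libraries of each label, 0 members had a limma p under 0.05 (3.87% of all genes) and 0 were free of overlap (2.46%). The exact permutation p of single members ranged from 0.257 to 1.0 there, where 4 against 4 can reach 0.029. No member had an adjusted p under 0.05 in these comparisons, where that background was 0% of all genes for BCAS against sham, 0% for the label WT against sham, 0.00552% for the label TRPA1-KO against sham, 0.0166% between the BCAS labels, and 0.0552% between all libraries of the labels.

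**Figure D4:**
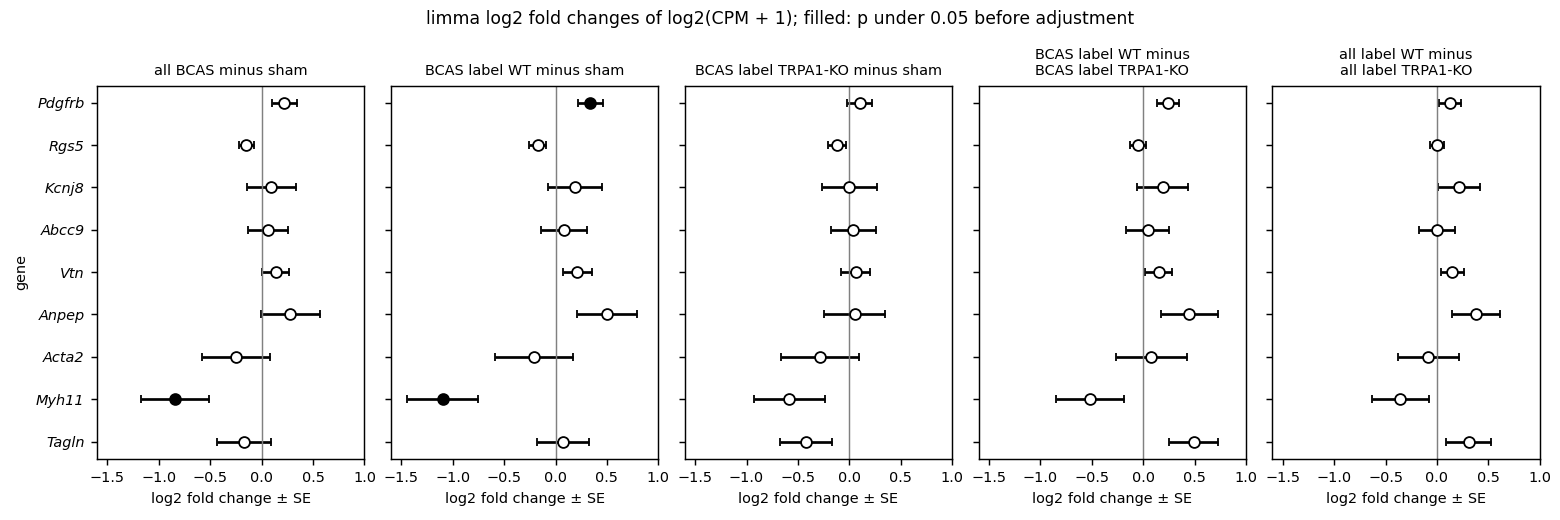
Log2 fold change of each gene in the 5 comparisons, from limma on log2(CPM + 1), with SE as bars. Filled points had a p under 0.05 before adjustment: *Myh11* over all BCAS (-0.84) and with the label WT (-1.10), and *Pdgfrb* with the label WT (0.34).

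The direction between the labels turned with the day for several members. On day 7, the library labelled WT had 1.77 times the *Kcnj8*, 1.68 times the *Abcc9*, and 1.43 times the *Vtn* of the library labelled TRPA1-KO. On day 10 these ratios were 1.08, 1.01, and 1.20, and on day 14 they were 0.825, 0.650, and 0.804. For *Acta2* the ratios were 0.496, 1.24, and 2.07 on days 7, 10, and 14, and for *Myh11* they were 0.579, 0.287, and 1.60. Only *Anpep* and *Tagln* of the 9 members were higher with the label WT on all 3 days. The label WT had the higher value for 6, 8, and 4 of the 9 members on days 7, 10, and 14, and for 51.0%, 49.6%, and 48.7% of all genes. With 1 library a label and day, these ratios have no replicate check.

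The day 7 library labelled WT was the highest of the 8 for 5 members (*Kcnj8*, *Abcc9*, *Vtn*, *Anpep*, and *Tagln*) and the lowest for *Rgs5*. Its 5 capillary members lay at a median of 0.42 above the sham mean on the log2 scale and its 3 arteriole members at a median of -0.66. The day 14 library labelled TRPA1-KO had the next highest capillary median, 0.25, and the lowest arteriole median, -1.07. In the other 4 BCAS libraries the capillary median lay between -0.09 and 0.01. In the day 7 library labelled WT and the day 14 library labelled TRPA1-KO, the endothelial genes summed to 1074 and 962 CPM (sham 905 and 995 CPM). The fibroblast genes summed to 673 and 342 CPM there (sham 335 and 370 CPM). Of these fibroblast sums, *Apod* alone held 547 and 223 CPM (sham 213 and 261 CPM). The astrocyte genes summed to 5161 and 4857 CPM in these libraries (sham 3821 and 4056 CPM). Of these astrocyte sums, *Gfap* held 1415 and 427 CPM (sham 200 and 234 CPM). *Slc1a2* held 2675 and 3512 CPM (sham 2770 and 3045 CPM), below both sham libraries in the first and above both in the other. The microglia genes summed to 745 and 384 CPM (sham 295 and 304 CPM). The day 10 library labelled WT had a capillary median of -0.07. Its astrocyte, microglia, and fibroblast genes summed to 4993, 476, and 399 CPM, each above the day 14 library labelled TRPA1-KO. The part of these cells in the member values was not tested. The summed capillary members had 194.6 to 222.9 CPM over the 8 libraries, and 0.205 to 0.232 per CPM of the endothelial genes.

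Other genes of the same cells and pathways were taken from lists. Of 20 other pericyte genes, 19 were tested and *Nkx3-2* had 0 reads in every library. Over all BCAS libraries against sham, 0 of the 19 had a limma p under 0.05 and 12 were above sham. With the label WT, *Mcam*, an adhesion molecule of mural cells, was lower (-0.32 ± 0.11, limma adjusted p = 0.871) and *Atp13a5*, a transporter typical of brain pericytes, was higher (0.41 ± 0.16, limma adjusted p = 0.895). *Mcam* had 32.7, 40.8, and 37.6 CPM with the label WT, below 45.2 and 47.5 CPM in sham, and *Atp13a5* had 21.3, 19.8, and 16.1 CPM, above 13.7 and 14.3 CPM. The genes of the list with the highest mean CPM were *Rgs4* (256 to 395 CPM), which neurons also express, and *Mcam*. *Ifitm1* was higher in BCAS with the label WT than with the label TRPA1-KO (0.83 ± 0.33, limma adjusted p = 0.983), at no more than 3.91 CPM in any library.

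Of 22 other smooth muscle genes, 21 were tested. Only *Crip1* had a limma p under 0.05 over all BCAS libraries (0.46 ± 0.20, limma adjusted p = 1.0), with 2.24 to 3.85 CPM against 1.72 and 2.30 CPM in sham. The median of the 21 was -0.05, and 7 were above sham. *Synpo2*, which encodes an actin-bundling protein of muscle, was lower with the label TRPA1-KO (-0.53 ± 0.19, limma adjusted p = 1.0), at 6.23, 7.15, and 5.41 CPM against 8.53 and 10.5 CPM. *Myh9*, the nonmuscle myosin heavy chain, was higher with the label WT (0.29 ± 0.13, limma adjusted p = 0.911), at 174, 131, and 119 CPM against 112 and 116 CPM. *Mustn1* was lower with the label WT over all libraries (-0.43 ± 0.19, limma adjusted p = 0.999), at only 0.22 to 1.45 CPM. Its lowest value, in the day 14 BCAS library labelled WT, was below the floor of 3 reads there (0.33 CPM). The genes with the highest means, *Flna* (145 to 203 CPM) and *Tpm1* (159 to 192 CPM), are also made by other cells.

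The 24 genes of platelet-derived growth factor and vessel to mural signalling were all tested. Over all BCAS libraries, 0 were higher and 4 lower with a limma p under 0.05, which were *Pdgfc*, *Pdgfra*, *Acvrl1*, and *Edn1* (limma adjusted p = 1.0 for each). *Pdgfb*, the endothelial ligand of the *Pdgfrb* receptor, had 27.2 and 24.7 CPM in sham and 32.3, 31.8, and 30.0 CPM with the label WT (0.26 ± 0.11, limma adjusted p = 0.907). With the label TRPA1-KO it had 28.5, 32.0, and 26.1 CPM (0.14 ± 0.11, limma adjusted p = 1.0). Ligand and receptor thus were both above sham in all 3 libraries labelled WT. Of all genes, 19.9% did not overlap sham there, counting higher and lower ones.

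Within the same list, the receptor gene *Tgfbr2* had 47.4, 32.8, and 20.6 CPM with the label WT against 16.7 and 18.5 CPM in sham (0.82 ± 0.25, limma adjusted p = 0.828). The coreceptor gene *Eng* was higher in all BCAS libraries labelled WT than in all those labelled TRPA1-KO (0.34 ± 0.11, limma adjusted p = 0.983). So was *Angpt2* (0.68 ± 0.29, limma adjusted p = 0.983), at only 0.53 to 3.65 CPM. *Edn1*, which encodes the vasoconstrictor endothelin, was lower with the label TRPA1-KO than in sham (-0.81 ± 0.33, limma adjusted p = 1.0), at 1.56, 1.28, and 1.98 CPM against 3.36 and 3.74 CPM. Over the label WT against sham, 3 of the 24 were higher (*Pdgfb*, *Tgfbr2*, *Eng*) and 2 lower (*Pdgfra*, *Acvrl1*) with a limma p under 0.05. The most abundant genes of the list were *S1pr1* (109 to 132 CPM) and *Cdh2* (121 to 136 CPM), and neither passed in any comparison.

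The KATP channel and the regulators of contraction gave no call. All 4 channel genes were above sham over BCAS, by a median of 0.10, and 0 had a limma p under 0.05 in any comparison. The most abundant were *Kcnj11* (39.7 to 57.1 CPM) and *Abcc8* (39.3 to 51.9 CPM), the subunits of the neuronal form, whose groups overlapped. The 15 contractility regulators had a median of -0.02 over BCAS against sham and 0 with a limma p under 0.05 in the 5 comparisons, among them the most abundant, *Rock2* (240 to 327 CPM) and *Gucy1b1* (129 to 166 CPM). Of the 18 endothelial genes, 0 had a limma p under 0.05 over all BCAS against sham, with 12 above sham and a median of 0.08. *Cdh5* was higher (0.48 ± 0.21, limma adjusted p = 0.911) and *Itm2a* lower (-0.33 ± 0.11, limma adjusted p = 0.871) with the label WT. *Slc2a1* was lower with the label TRPA1-KO (-0.24 ± 0.11, limma adjusted p = 1.0). *Pecam1* and *Ly6c1* were higher in BCAS with the label WT than with the label TRPA1-KO (limma adjusted p = 0.983 for each), and *Ly6c1* and *Vwf* over all libraries of the labels (limma adjusted p = 0.999 for each).

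**Figure D5:**
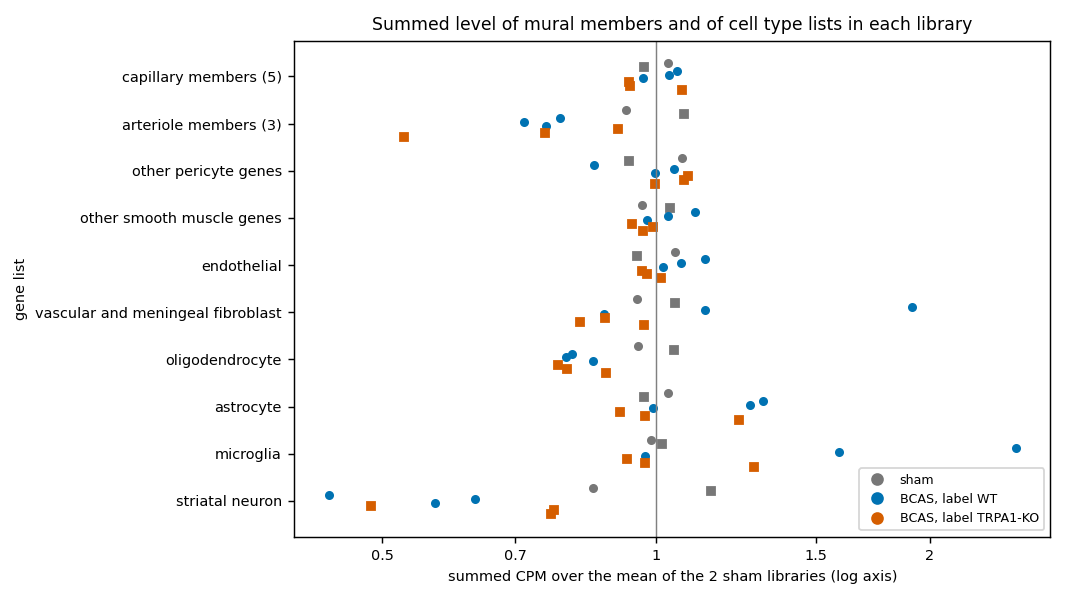
Summed CPM of the capillary and arteriole members and of 8 cell type lists in each library, as a ratio to the mean of the 2 sham libraries (log axis). Gray is sham, blue BCAS labelled WT, and orange BCAS labelled TRPA1-KO. The arteriole sum is below both sham libraries in all 6 BCAS libraries, as is *Myh11* but not *Acta2* or *Tagln* alone. In the day 7 library labelled TRPA1-KO it is only narrowly below. The capillary sum stays near 1. The microglia and fibroblast sums of the day 7 library labelled WT lie far to the right, the fibroblast sum mostly through *Apod*.

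For cells outside the vessel wall, the comparison of all BCAS libraries with sham is given. Fibroblast genes (13) summed to 335 and 370 CPM in sham, 309 to 673 CPM with the label WT, and 290.3 to 342 CPM with the label TRPA1-KO. *Apod* made up 547 of the 673 CPM. The fibroblast list also holds *Pdgfra*, whose protein the paper used to mark oligodendrocyte precursor cells, so its level cannot be assigned to fibroblasts. Astrocyte genes (6) summed to 3821 and 4056 CPM in sham and to 3590 to 5161 CPM over BCAS, and oligodendrocyte genes (8) to 15830 and 17360 CPM in sham and 12930 to 14620 CPM over BCAS. Cortical neuron genes (8) summed to 1545 to 2007 CPM and choroid plexus and ependymal genes (9) to 30.4 to 49.5 CPM, with overlap between all groups. The genes with a limma p under 0.05 were *Col1a2* (higher) and *Pdgfra* (lower) for fibroblasts, *Mog*, *Mag*, *Mobp*, and *Mal* (lower) for oligodendrocytes, *Cux2* (higher) for cortex, *Clic6* (lower) for choroid plexus, *Hba-a1* and *Hba-a2* (lower, with identical values) for blood, all 9 striatal genes (lower), and none of the 6 astrocyte or 6 microglia genes. By limma, none of them had an adjusted p under 0.05 over all BCAS against sham, and *Mog*, a myelin gene, was lower with the label TRPA1-KO against sham (-0.73 ± 0.08, limma adjusted p = 0.0461). The part of these cells in the member values was not tested.

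Across the 8 libraries, the genes most like the capillary members in pattern were *Fstl1*, *Bid*, *Klf6*, *Slc1a3*, and *Paox*, out of 12427 genes averaging 5 CPM or more. The measure was Pearson's r of log2(CPM + 1) with the mean standardized profile of the 5 capillary members, and it lay between 0.953 and 0.974. The members themselves correlated unequally with this profile, *Vtn* at 0.977, *Abcc9* at 0.879, *Kcnj8* at 0.842, *Pdgfrb* at 0.543, and *Rgs5* at -0.34. *Slc1a3* is an astrocyte glutamate transporter gene, with 619 CPM in the day 7 library labelled WT, 579 CPM in the day 14 library labelled TRPA1-KO, and 438 to 501 CPM in the others. The genes most like the 3 arteriole members were *Abcf1*, *Fastkd5*, *Sin3b*, *Pced1b*, and *Trmt44*, with r between 0.901 and 0.955, while *Acta2*, *Myh11*, and *Tagln* had 0.623, 0.649, and 0.370. These values are descriptions over 8 libraries that differ in depth and in the summed levels of cell type genes. The part of these differences in the r values was not tested.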

How the data were processed

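The 8 libraries of polyadenylated RNA were grouped by the deposited operation, label, and day. The authors mapped reads to GRCm38 (mm10) with HISAT2, counted them per gene with featureCounts of Subread, and normalized them with edgeR. The annotation and the strand setting of the counting are not given in the sources used here. The deposited values are a signal per gene: CPM by effective library size, computed by the authors, not log-transformed, and 100% of them were whole multiples of 1 read (tolerance 0.01). Whole reads were thus recovered, 7896071 to 12952093 per library, which allow a floor of 3 reads. Intervals and floors cover counting error only.

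With limma 3.58.1 (trend) in R 4.3.3, log2(CPM + 1) was tested over the 18123 genes averaging 0.1 CPM or more, with Benjamini-Hochberg adjustment, and single members with two-sided exact permutation tests. Fold changes on that scale understate low genes. Comparisons with sham used both sham libraries as 1 group. Alternatives were other pseudocounts, filters, scaling, robust variance, edgeR 4.0.16 and DESeq2 1.42.0 on the reads, day blocks, day 14 alone, and each library left out. edgeR called 2 genes at an adjusted p under 0.05 between the BCAS labels, 0 and 1 for the labels WT and TRPA1-KO against sham, 0 over all BCAS, and 10 between all libraries of the labels.

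The rule for named genes took all members, from each list those with a limma p under 0.05 and the 2 with the largest mean CPM, and the 5 genes most like each group of members. For lists outside the vessel wall, sums and the genes of all BCAS against sham are given. *Gfap* was chosen after its values were seen. The members and lists were chosen with earlier results of these data known. Per the study's methods, a sample was tissue of 1 mouse, so p-values measure the spread between these libraries, which holds both days and animals.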

Additional observations from a re-analysis of the deposited data

How the results depend on the processing

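Limits: each day had 1 library a label, sham covered day 14 only, and *Anpep*, *Acta2*, *Myh11*, *Tagln*, and *Kcnj8* rested on 17 to 127 reads in a library. Under every alternative run, 0 members had an adjusted p under 0.05. Without replicates in turn, the members' median log2 fold change ranged from 0.05 to 0.26 between the BCAS labels, -0.06 to 0.20 for the label WT against sham, -0.12 to 0.10 for the label TRPA1-KO against sham, -0.02 to 0.12 over all BCAS, and 0.05 to 0.17 between all libraries of the labels. Members with a p under 0.05 then numbered 0 to 2, 0 to 4, 0 to 0, 0 to 1, and 0 to 1. The 4 came without the day 14 library labelled WT (*Pdgfrb*, *Rgs5*, *Vtn*, *Myh11*), when 11.1% of all genes had a p under 0.05, and the 2 between the BCAS labels came without the same library, when 10.2% did, and a sham library left alone is assumed to vary like the other groups. *Pdgfrb* with the label TRPA1-KO ranged from -0.00297 to 0.21 and changed sign without the sham library labelled WT. Between the BCAS labels, 1 member in place of 0, *Pdgfrb*, had a p under 0.05 with equal library medians, with edgeR, and with all 8 libraries in 1 fit. In these settings 757, 948, and 979 of the 18123 genes did. Between all libraries of the labels, the 1 member came without the day 14 BCAS library labelled TRPA1-KO, when 3.58% of all genes had a limma p under 0.05. The causes were not tested. Day 14 alone gave medians of -0.10, 0.09, and 0.13 for the labels WT and TRPA1-KO and all BCAS against sham, with 1 library a label. The label WT median thus turned sign from 0.08, and -0.10 and 0.13 lie outside the ranges above. The other settings kept the counts. Days do not pair the libraries: same-day deviations correlated at -0.10, 0.01, and -0.26, while fitting day as a replicate block left the median at 0.15 and 0 members under 0.05. With operation and day as a replicate block, the median between all libraries of the labels stayed at 0.13. At an adjusted p under 0.05, over all genes, DESeq2 called 17, 24, 4, 6, and 13 genes where limma called 3, 0, 1, 0, and 10, in the order above.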
